A study of Mus musculus with 31 samples.

Results

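The genes described here are 10 genes of dopamine, histamine and serotonin signalling in mouse hypothalamus: Th, Slc6a3, Slc18a2, Hdc, Drd1, Drd2, Hrh1, Hrh3, Htr2c and Htr1b. They were chosen by symbol, through the gene identifiers of Ensembl GRCm38 release 94, and all 10 were found among the 54532 genes counted. The study asked how a mother's obesogenic diet bears on the hypothalamus of her adult offspring, with bulk RNA sequencing of 31 hypothalamus libraries. C57BL/6J dams ate either a control diet or a high-fat-high-sugar (obesogenic) diet while pregnant and nursing, and their pups were weaned on postnatal day 21 to chow. From 3 months of age the offspring of both kinds of dam were themselves put on the obesogenic diet, for 4 weeks, and tissue was taken at 4 months. The groups were daughters of control dams (control female, n = 8), daughters of obesogenic-diet dams (obesogenic female, n = 7), sons of control dams (control male, n = 8) and sons of obesogenic-diet dams (obesogenic male, n = 8). No group of offspring kept on chow alone was analysed here, so every comparison is between animals that had themselves eaten the obesogenic diet. Since animals and litters are not named in the labels, a p-value here measures only the spread between these libraries.

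Dopamine neurons make their transmitter with tyrosine hydroxylase (Th), load it into vesicles with the vesicular monoamine transporter (Slc18a2) and take it back up with the dopamine transporter (Slc6a3). Histamine neurons of the tuberomammillary nucleus in the posterior hypothalamus make histamine with histidine decarboxylase (Hdc) and use the same vesicular transporter, while serotonin reaches the hypothalamus in axons of brainstem neurons whose cell bodies lie elsewhere. The receptors are read out in the cells that receive these signals, or on the releasing neurons themselves: Drd1 and Drd2 bind dopamine, Hrh1 and Hrh3 bind histamine, and Htr2c and Htr1b bind serotonin. Dopamine cells of the arcuate nucleus restrain prolactin release, and histamine and serotonin signalling in the hypothalamus is known for its part in arousal and in limiting food intake.

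On GRCm38 the annotation of the files places Th (ENSMUSG00000000214) at chr7:142892752-142931128 (minus strand) and Slc6a3 (ENSMUSG00000021609) at chr13:73536747-73578672 (plus strand). It places Slc18a2 (ENSMUSG00000025094) at chr19:59260878-59296012 (plus strand) and Hdc (ENSMUSG00000027360) at chr2:126593667-126619299 (minus strand). The dopamine receptors are Drd1 (ENSMUSG00000021478) at chr13:54051183-54055705 (minus strand) and Drd2 (ENSMUSG00000032259) at chr9:49340627-49408177 (plus strand), and the histamine receptors are Hrh1 (ENSMUSG00000053004) at chr6:114397936-114483296 (plus strand) and Hrh3 (ENSMUSG00000039059) at chr2:180099465-180104488 (minus strand). The serotonin receptors are Htr2c (ENSMUSG00000041380) at chrX:146962513-147197277 (plus strand) and Htr1b (ENSMUSG00000049511) at chr9:81628291-81633828 (minus strand). Htr1b is overlapped on the other strand by D430036J16Rik, and the counting used strand.

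To show the regulatory sequence in front of the enzyme and transporter genes, the 250 bases before each annotated start site are printed for those 4 genes. They run 5′ to 3′ on the gene's strand and come from RefSeq on GRCm38.p6. The RefSeq start sites used for Th and Hdc lie inside the Ensembl spans given above. Capitals mark matches to a cAMP response element (TGACGTCA) or a GC box (GGGCGG, or CCGCCC on the other strand), both searched on both strands. The windows are chr7:142899996-142900245 on the minus strand for Th, chr13:73536497-73536746 on the plus strand for Slc6a3, chr19:59260628-59260877 on the plus strand for Slc18a2 and chr2:126618679-126618928 on the minus strand for Hdc.
Th: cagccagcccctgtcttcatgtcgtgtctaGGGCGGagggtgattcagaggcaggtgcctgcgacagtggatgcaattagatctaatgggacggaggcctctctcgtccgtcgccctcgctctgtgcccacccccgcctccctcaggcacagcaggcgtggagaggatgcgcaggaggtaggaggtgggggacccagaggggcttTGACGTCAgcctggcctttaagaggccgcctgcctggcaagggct
Slc6a3: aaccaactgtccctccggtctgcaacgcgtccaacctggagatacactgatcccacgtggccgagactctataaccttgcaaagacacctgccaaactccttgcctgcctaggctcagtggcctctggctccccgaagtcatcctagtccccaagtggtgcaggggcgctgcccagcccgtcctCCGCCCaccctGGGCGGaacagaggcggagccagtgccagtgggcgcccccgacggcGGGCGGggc
Slc18a2: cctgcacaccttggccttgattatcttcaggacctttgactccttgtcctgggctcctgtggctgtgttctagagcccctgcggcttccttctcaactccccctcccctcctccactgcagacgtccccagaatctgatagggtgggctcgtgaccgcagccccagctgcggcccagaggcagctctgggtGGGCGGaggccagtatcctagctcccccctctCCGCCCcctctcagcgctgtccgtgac
Hdc: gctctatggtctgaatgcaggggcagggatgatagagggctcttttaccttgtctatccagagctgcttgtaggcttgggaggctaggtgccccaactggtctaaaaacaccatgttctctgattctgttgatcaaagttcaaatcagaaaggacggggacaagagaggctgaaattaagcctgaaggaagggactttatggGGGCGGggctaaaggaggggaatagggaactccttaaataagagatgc
The Th window held a cAMP response element 45 to 38 bases before the start site, a sequence present in 1.55% of 32851 promoter windows of this length, and the other 3 windows held none. All 4 windows held at least 1 GC box, which 32.7% of all windows held. The monomer letters AAAGGTCA of the Nr4a2 family, searched on both strands and present in 1.34% of windows, did not occur in these 4 windows. These matches describe letters in the sequence; binding was not measured.

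Library totals ran from 23118626 to 38547288 read pairs assigned to genes, and values are given as CPM (counts scaled to a fixed library total) after TMM scaling of the totals for the 10 genes and their closest companions, and as CPM of the plain totals for the ranges and sums of listed and marker genes. Doubts applied to 5 libraries; tests were run with all 31 libraries and with the 26 others. In 2 of them, the libraries labelled control female 7 and control male 7, Xist and Y-linked genes went against the sex on the label. In 3 of them (control female 5, control male 6 and obesogenic female 3) the median correlation with the other libraries was 0.910, 0.914 and 0.936, against 0.967 to 0.979 in the rest. Control male 6 and obesogenic female 3 had reads in 18734 and 18513 genes, against 21311 to 22918 in the other libraries, control female 5 included. In control female 5 the 22 hypothalamus markers summed to 309 CPM, against 1563 to 2847 CPM in the 26 libraries, with 9 of them, Sim1 and Nkx2-1 included, at 0. The 17 olfactory bulb markers summed to 4623 CPM there, against 483 to 779 CPM, and Meis2 stood at 885 CPM against at most 24.4 CPM. The hypothalamus markers summed to 4135 CPM in control male 6, above the 26 libraries, and to 2053 CPM in obesogenic female 3, within their range.

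Each of the 10 genes was measured well above zero and passed the filter on low counts. The fewest read pairs in any of the 26 libraries were 114, for Drd1, where counting alone gives a coefficient of variation of 9.37%, and 147 for Slc6a3, where it gives 8.25%. In bulk tissue, fewer cells of a type and less RNA per cell cannot be told apart. Per kilobase of exon, the level was highest for Hrh3, at 21.8 ± 3.15 RPKM (CPM per kilobase; SD, n = 26), and for Th, at 21.3 ± 5.91 RPKM. Hrh3, an inhibitory autoreceptor on histamine neurons that also sits on other terminals, exceeded Th in only 16 of 26 libraries. Slc18a2 followed at 15.1 ± 3.51 RPKM, Hdc at 11.3 ± 2.82 RPKM and Htr2c at 8.95 ± 1.41 RPKM. Slc6a3, at 7.42 ± 8.52 RPKM, Hrh1, at 7.38 ± 0.833 RPKM, and Drd2, at 6.93 ± 1.37 RPKM, were not ordered beyond their spread: Slc6a3 exceeded Hrh1 in 9 libraries and Hrh1 exceeded Drd2 in 15. Htr1b, at 4.92 ± 0.768 RPKM, exceeded Drd1, the lowest at 1.81 ± 0.357 RPKM, in 26 of 26 libraries.

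**Figure D1:**
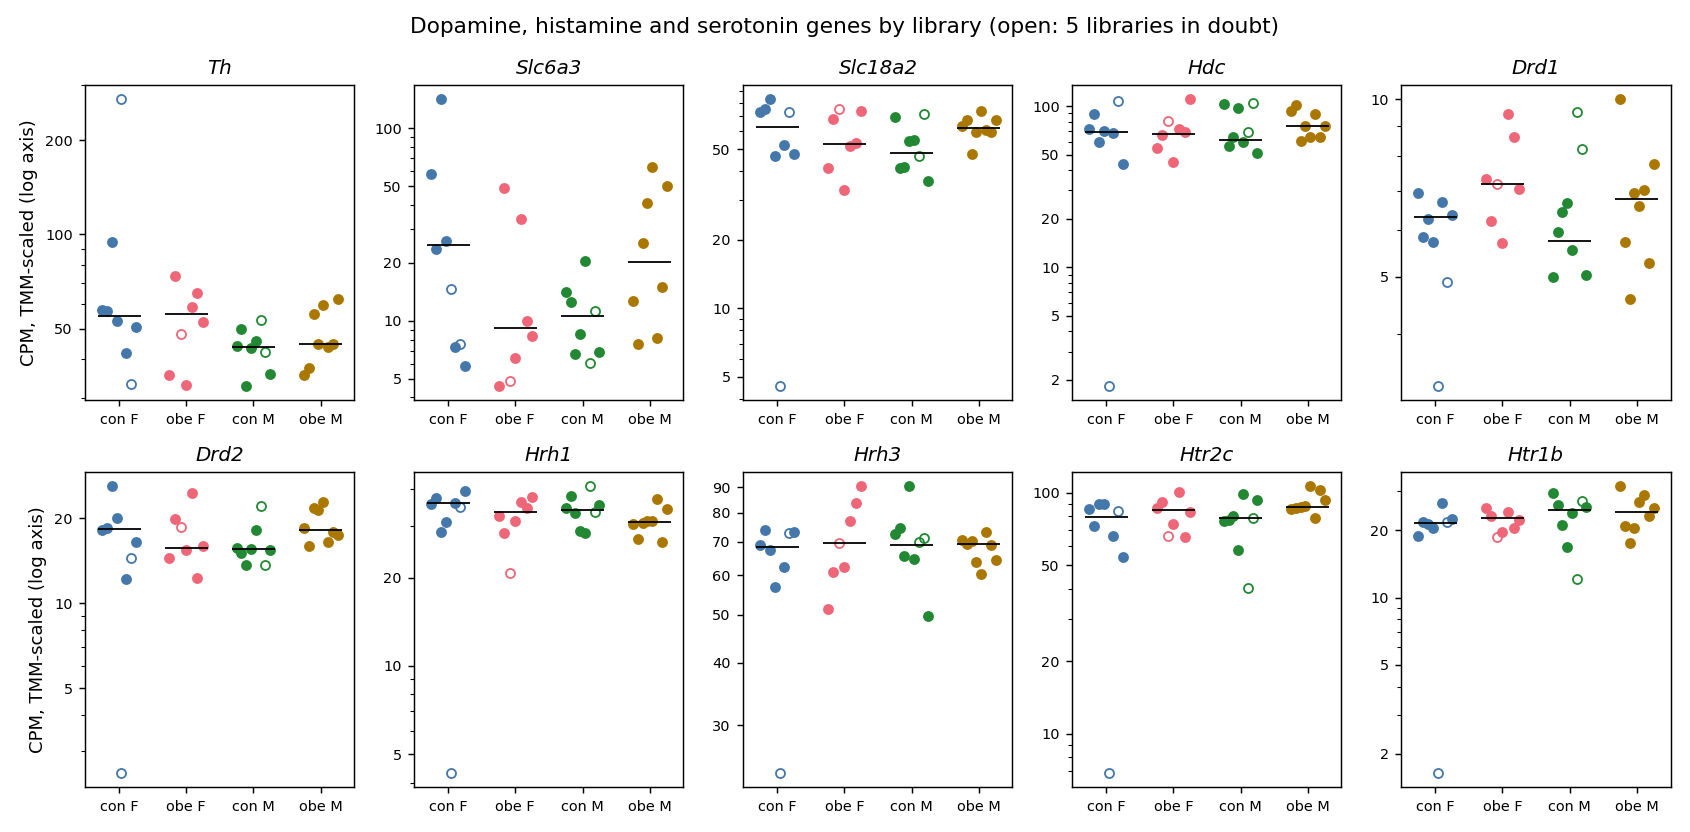
TMM-scaled CPM (log axes, each with its own range) of the 10 genes in each of 31 libraries, by maternal diet (con, control; obe, obesogenic) and sex (F, M); lines are medians of the filled points and open points are the 5 libraries in doubt. Slc6a3 spans 4.60 to 141.5 CPM in the filled points, while Hrh1 spans 26.4 to 39.3 CPM. Among the open points, control female 5 is the highest for Th and the lowest for the other genes except Slc6a3.

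Control female 5 lay outside the range of the 26 libraries for 9 of the 10 genes. Its Th, at 270.7 CPM, lay above the 32.8 to 94.8 CPM of the 26 libraries, and its Slc6a3, at 14.6 CPM, lay within their range. Its other 8 values lay below every one of the 26: Slc18a2 was 4.57 CPM against 33.3 at the lowest, Hdc 1.84 CPM against 43.6 and Htr2c 6.89 CPM against 53.9. Ddc, the decarboxylase that follows Th in dopamine synthesis, was also low there, at 7.76 CPM against 45.5 to 93.8 CPM. What makes this library differ was not tested. Of the other libraries in doubt, control male 6 had the lowest Htr2c (40.3 CPM) and Htr1b (12.1 CPM) of the libraries beside control female 5, and obesogenic female 3 had the lowest Hrh1 (20.8 CPM).

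Slc6a3 varied more within groups than nearly any gene measured. Its TMM-scaled CPM in the 26 libraries ran from 5.80 through a median of 24.8 to 141.5 in control females and from 4.60 through 9.16 to 48.9 in obesogenic females. It ran from 6.73 through 10.6 to 20.4 in control males and from 7.60 through 20.2 to 63.2 in obesogenic males. The highest library, control female 3, had 141.5 CPM, the next in its group had 57.8 CPM, and all 4 groups overlapped at the low end. Its within-group SD was 1.29 on the log2 scale, larger than that of 99.5% of the genes tested, whose median SD was 0.24. Leaving no library out, it was 1.24, larger than that of 97.1%.

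The other genes of synthesis and storage varied less in the 26 libraries. Th ran from 41.8 through 54.9 to 94.8 CPM in control females, from 33 through 55.6 to 73.9 in obesogenic females, from 32.8 through 43.7 to 50.0 in control males and from 35.4 through 44.6 to 62.0 in obesogenic males. Slc18a2 ran from 46.6 through 62.7 to 83.1 CPM in control females, from 33.3 through 52.6 to 74.0 in obesogenic females, from 36.2 through 48.3 to 69.1 in control males and from 47.6 through 62.0 to 74.0 in obesogenic males. Hdc lay between 43.6 and 110.2 CPM, with group medians of 69.3, 67.5, 62.0 and 75.3 CPM in the same order. Within-group SDs on the log2 scale were 0.36 for Th, 0.33 for Slc18a2 and 0.37 for Hdc, and 0.55, 0.76 and 1.01 with all 31 libraries. For all 3 genes every pair of groups overlapped.

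Among the receptors, Hrh1, the excitatory histamine receptor, was the steadiest in the 26 libraries, with 26.4 to 39.3 CPM over the 26 libraries and a within-group SD of 0.16 on the log2 scale, larger than that of only 27.1% of the genes tested. With all 31 libraries its SD was 0.57, above the 0.32 of Drd1 and the 0.33 of Hrh3. Drd2, the inhibitory dopamine receptor that is also an autoreceptor, ran from 12.2 to 26 CPM, with group medians of 18.3 CPM in control females, 15.7 in obesogenic females, 15.5 in control males and 18.1 in obesogenic males. Drd1, the receptor that raises cAMP, ran from 4.58 to 10 CPM. Hrh3 ran from 49.7 to 90.6 CPM, Htr2c, an excitatory serotonin receptor on pro-opiomelanocortin neurons among others, from 53.9 to 107 CPM, and Htr1b, an inhibitory serotonin receptor on axon terminals, from 16.8 to 31.6 CPM. These 5 receptors had within-group SDs of 0.22 to 0.27, close to the median of all genes tested.

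The first comparison asked whether the maternal diet shifted these genes in daughters. No gene of the 10 was called by edgeR at an adjusted p under 0.05, and the background was 0.0% of 18743 genes. DESeq2, which called 25 of all genes, and limma voom, which called 0, called none of the 10 either. At an unadjusted p under 0.05, 2 of the 10 passed, Th and Drd1, where 8.12% of all genes passed; with the 26 libraries 0 of 10 did, where 8.4% of all genes passed. Th averaged 82.3 ± 78.2 CPM (SD) over the 8 control females and 52.3 ± 14.9 CPM over the 7 obesogenic females, a log2 fold change of -0.65 ± 0.31 (SE; edgeR adjusted p = 0.601). That value rested on control female 5. With the 26 libraries the means were 59.0 ± 18.4 and 53.1 ± 16.2 CPM (n = 6 each), and the log2 fold change was -0.16 ± 0.20 (edgeR adjusted p = 0.859).

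Drd1 averaged 5.75 ± 1.18 CPM after control dams and 7.37 ± 1.30 CPM after obesogenic-diet dams, a log2 fold change of 0.36 ± 0.17 (edgeR adjusted p = 0.602). In the 26 libraries it was 0.23 ± 0.15 (adjusted p = 0.694 by edgeR), and 4 of 6 obesogenic females exceeded the control mean. Slc6a3 had the largest estimate, -1.09 ± 0.66, from 35.5 ± 46.1 to 16.7 ± 17.5 CPM (edgeR adjusted p = 0.660). Control female 3, at 141.5 CPM of Slc6a3, was kept in this fit and in that of the 26 libraries. How far the estimate rests on that library was not tested. In the 26 libraries the estimate was -1.23 ± 0.74, with a 95% interval from -2.76 to 0.29, which held both no difference and a several-fold lower level. By contrast the intervals of Hrh1 (-0.24 to 0.13), Hrh3 (-0.15 to 0.32), Htr2c (-0.12 to 0.38) and Htr1b (-0.21 to 0.29) in the 26 libraries held no log2 fold change larger than 0.38 in size; with all 31 they reached 0.49 for Hrh1 and Hrh3, 0.79 for Htr2c and 0.73 for Htr1b. The median log2 fold change of the 10 genes was 0.13 with all libraries and -0.0084 with 26, against -0.0131 for all genes tested with 31.

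In sons the same question gave 0 of 10 genes called by edgeR (background 0.0% of 18743), and none by DESeq2, which called 1 of all genes, or limma voom, which called 0. One gene, Slc6a3, passed an unadjusted p under 0.05, where 3.45% of all genes did; with the 26 libraries it was Drd2, where 2.7% of all genes passed. Slc6a3 averaged 10.8 ± 4.86 CPM after control dams and 27.9 ± 21.2 CPM after obesogenic-diet dams (SD, n = 8 each), and 6 of 8 obesogenic males exceeded the control mean. The log2 fold change was 1.37 ± 0.64 (edgeR adjusted p = 0.940), and 1.28 ± 0.71 with the 26 libraries, with an interval from -0.20 to 2.75. The midbrain dopamine markers, taken up again beside the covariation, summed to 188 to 258.1 CPM after control dams and 173 to 321 CPM after obesogenic-diet dams in the 26 libraries. Of the 11 tested, 9 had higher and 2 lower estimates in sons of obesogenic-diet dams with all libraries (median 0.34), and 11 higher and 0 lower with 26 (0.36). In daughters 2 were higher and 9 lower with all libraries (-0.38), and 1 and 10 with 26 (-0.53). The markers come from the same libraries and their sum covaried with Slc6a3, so these counts are not of independent estimates. In both sexes edgeR called 0 of the markers. Their part in the Slc6a3, Drd2 and Slc18a2 values was not tested.

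Drd2 and Slc18a2 lay in the same direction as Slc6a3 in sons. Drd2 in the 26 libraries averaged 15.6 ± 1.46 CPM after control dams (n = 6) and 19 ± 2.63 CPM after obesogenic-diet dams (n = 8), and 8 of 8 obesogenic males exceeded the control mean, although the groups overlapped. Its log2 fold change was 0.29 ± 0.14 there and 0.23 ± 0.23 with all libraries (edgeR adjusted p = 1.0 and 0.940). Slc18a2 averaged 49.7 ± 12.1 CPM after control dams and 62.4 ± 7.77 CPM after obesogenic-diet dams, a log2 fold change of 0.33 ± 0.17 in the 26 libraries (edgeR adjusted p = 1.0) and 0.26 ± 0.29 with all. Over the 10 genes 8 estimates were positive and 2 negative, with a median of 0.12 with all libraries and 0.18 with 26, against 0.000375 for all genes tested with 31. For Hdc the estimates were 0.15 ± 0.36 in daughters and 0.043 ± 0.35 in sons with all libraries, and 0.047 ± 0.21 and 0.11 ± 0.19 with 26. Its 95% intervals with 26 ran from -0.38 to 0.47 in daughters and from -0.28 to 0.51 in sons. Both held values as large as the Drd2 and Slc18a2 estimates in sons.

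**Figure D2:**
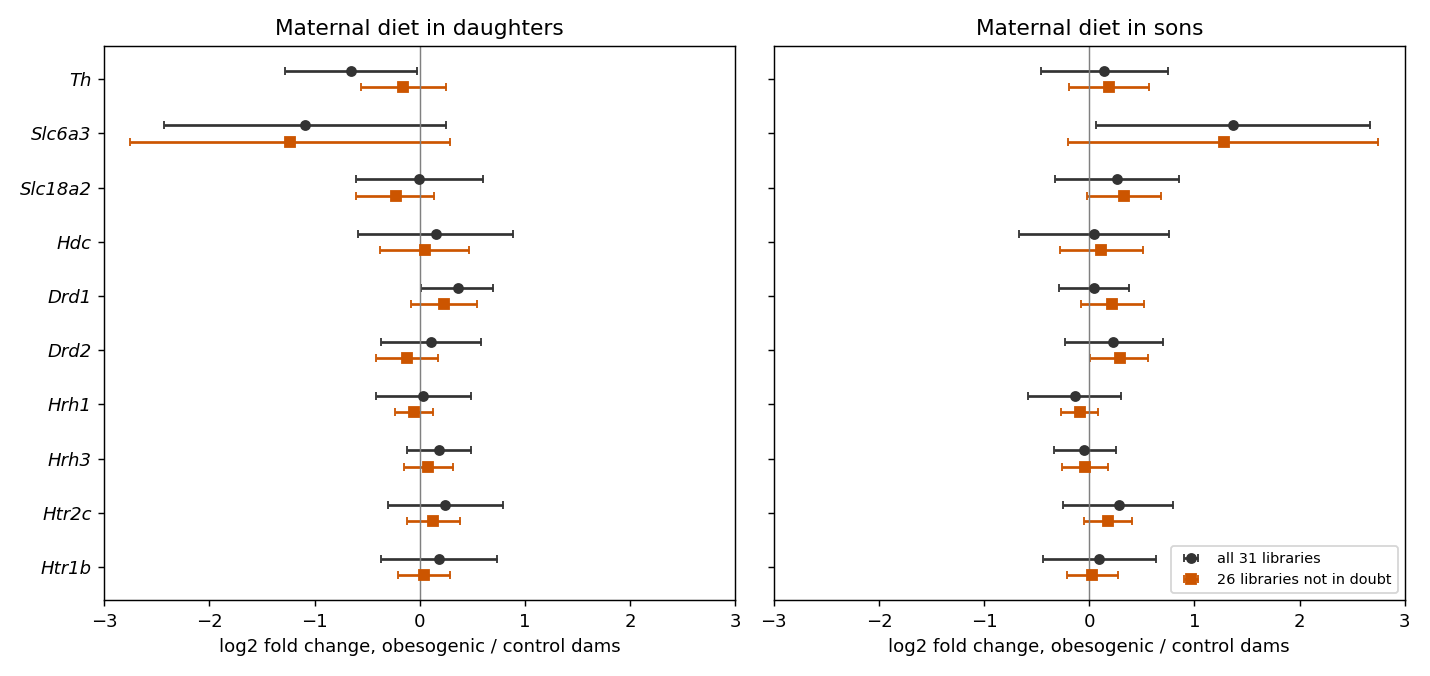
Log2 fold change of each gene with its 95% interval from edgeR, obesogenic-diet over control-diet dams, in daughters (left) and sons (right), with all 31 libraries (circles) and the 26 not in doubt (squares). Slc6a3 has the widest intervals, with estimates of -1.09 and -1.23 in daughters and 1.37 and 1.28 in sons; the Th estimate in daughters moves from -0.65 to -0.16.

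Whether the diet difference itself differed between the sexes was tested as an interaction, daughters minus sons. No gene of the 10 was called by edgeR (background 0.0%), DESeq2 (7 of all genes) or limma voom (0 of all genes), and 1 of 10, Slc6a3, had an unadjusted p under 0.05, where 3.62% of all genes did. Its interaction was -2.46 ± 0.91 on the log2 scale with all libraries and -2.51 ± 1.02 with 26 (edgeR adjusted p = 1.0 in both). The 11 tested midbrain dopamine markers, leaving out the 10 genes, had 2 estimates higher and 9 lower for the interaction with all libraries (median -0.86) and 0 higher and 11 lower with 26 (-0.57), against medians of 0.00479 and -0.00796 over all genes; their part in the Slc6a3 value was not tested. In the 26 libraries Slc18a2, at -0.56 ± 0.25, and Drd2, at -0.41 ± 0.20, also had unadjusted p under 0.05, where 3.48% of all genes did. With all libraries these were -0.27 ± 0.41 and -0.13 ± 0.33, Th had -0.80 ± 0.42, and the other 6 genes lay between -0.033 and 0.32. Slc6a3 covaried with Drd2 and with the sum of the midbrain dopamine markers across libraries, as described further on. These estimates, those of the markers included, are therefore not independent of each other, and edgeR called 0 of the markers. Control female 3, with the highest Slc6a3, was kept in both fits.

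Daughters and sons were then compared within each maternal diet. The fit to all 31 libraries includes those whose sex genes went against their labels. Without those libraries, edgeR called 10 of all genes after control dams and 9 after obesogenic-diet dams. Among offspring of control dams none of the 10 genes was called by edgeR (background 0.0%), DESeq2 (28 of all genes) or limma voom (0 of all genes), and 2 of 10, Th and Slc6a3, had an unadjusted p under 0.05, where 4.39% of all genes did. With the 26 libraries edgeR called 0 of 10 (background 0.0588%), and the same 2 genes had an unadjusted p under 0.05, where 2.42% of all genes did. Th was higher in control females by 0.93 ± 0.30 on the log2 scale (edgeR adjusted p = 0.817), and by 0.49 ± 0.20 in the 26 libraries, where the means were 59.0 ± 18.4 and 41.9 ± 6.41 CPM and 5 of 6 females exceeded the male mean. Slc6a3 differed by 1.71 ± 0.64 (edgeR adjusted p = 0.995), and by 1.92 ± 0.76 in the 26 libraries, where the means were 43.7 ± 51.5 and 11.5 ± 5.28 CPM. Control female 3, at 141.5 CPM of Slc6a3, was kept in both fits. The other 8 genes lay between -0.24 and 0.13 with all libraries. Among offspring of obesogenic-diet dams 0 of 10 genes were called by edgeR (background 0.0%) and 0 had an unadjusted p under 0.05, where 3.63% of all genes did; with the 26 libraries both counts were also 0 (backgrounds 0.0749% and 5.48%). With all libraries Slc6a3 had 16.7 ± 17.5 CPM in females and 27.9 ± 21.2 CPM in males and a log2 difference of -0.75 ± 0.65, and the other 9 genes lay between -0.17 and 0.13. In no comparison, with 31 or 26 libraries, did the values of 2 groups separate for any of the 10 genes, while 0.117% of all genes separated in daughters by diet, 0.016% in sons, 0.0107% between the sexes after control dams and 0.101% after obesogenic-diet dams with 31 libraries. With the 26 libraries those shares were 0.429%, 0.0537%, 0.188% and 0.156%.

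How these genes moved together from library to library within groups was examined next. Group means were removed from log2 CPM, and all 45 pairs were tested over the 26 libraries by permuting libraries within groups. In this way 6 pairs passed an adjusted p under 0.05, all with positive correlations: Th with Slc6a3, Slc6a3 with Drd2, Slc18a2 with Hdc, Slc6a3 with Htr2c, Drd2 with Htr2c, and Th with Slc18a2. All 6 were positive in 4 of 4 groups, which is no separate check, since the pairs were called on these same libraries. The lowest of these values was 0.0162, for Th with Slc18a2 in obesogenic males. The share of pairs that would pass among all genes was not computed. With only the libraries standing apart left out, 3 pairs passed. The median correlation over the 45 pairs was 0.133 in the 26 libraries. With all 31 libraries the median was 0.521 and 4 pairs passed, of which only Slc18a2 with Hdc was among the 6. The others were Hdc with Hrh3 (r = 0.863), Slc18a2 with Hrh3 (r = 0.829, adjusted permutation p = 0.0408) and Htr2c with Htr1b (r = 0.923, adjusted permutation p = 0.0345), whose r over the 26 libraries were 0.553, 0.438 and 0.171.

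**Figure D3:**
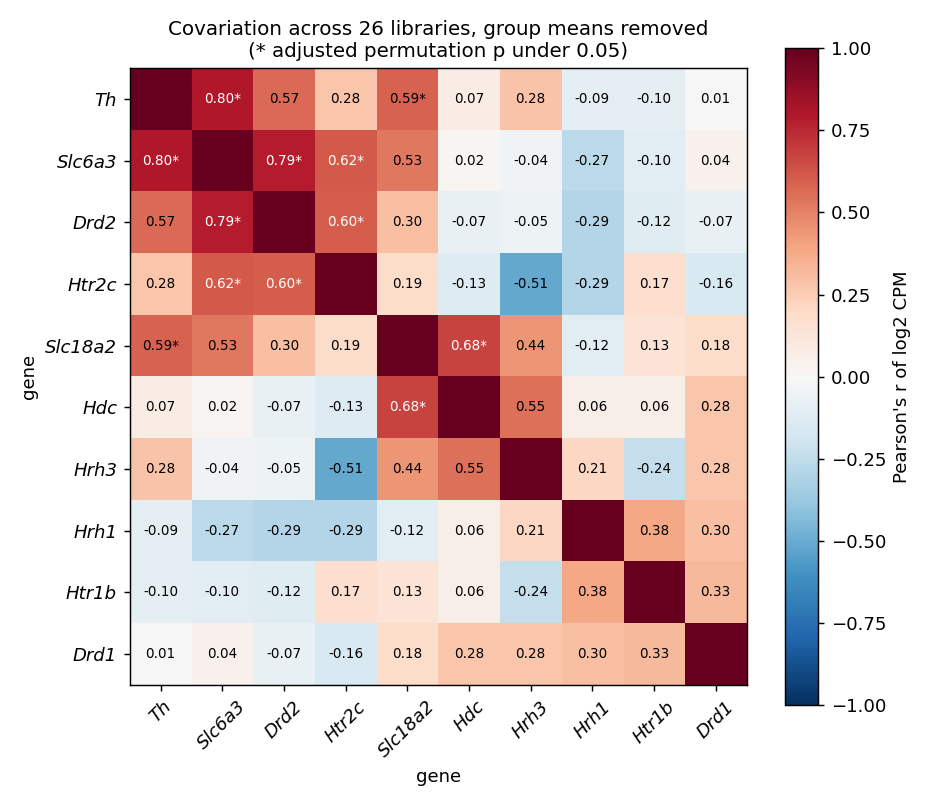
Pearson's r between each pair of the 10 genes over the 26 libraries not in doubt, on log2 CPM with group means removed; red is positive, blue negative, and an asterisk marks an adjusted permutation p under 0.05. Slc6a3 has asterisks with Th (0.802), Drd2 (0.788) and Htr2c (0.616), while Th has none with Drd2 (0.568) or Htr2c (0.277), and Slc18a2 is joined to both Th (0.587) and Hdc (0.678).

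Th and Slc6a3, the synthetic enzyme and the reuptake transporter of dopamine cells, had the highest correlation. Pearson's r was 0.802 (permutation p = 3e-05, adjusted 0.00135) and Spearman's rho was 0.823 (permutation p = 1e-05, the smallest these permutations can give; adjusted 0.000225). Without the 2 libraries farthest from the median of Th, r was 0.754. Within groups it was 0.869 in control females, 0.790 in obesogenic females, 0.770 in control males and 0.796 in obesogenic males. With all 31 libraries r was 0.434 (adjusted permutation p = 0.131) and rho was 0.676 (adjusted permutation p = 0.00315); control female 5 had the highest Th beside a Slc6a3 of 14.6 CPM.

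Slc6a3 and Drd2 had r = 0.788 (permutation p = 7e-05, adjusted 0.00157) and rho = 0.820 (adjusted permutation p = 0.000225), with r = 0.712 without the 2 farthest libraries and 0.747 to 0.838 within groups. The range of Drd2 was narrow all the same: while Slc6a3 spanned 30.7-fold from lowest to highest library, Drd2 spanned 2.14-fold and Th 2.89-fold. Control female 3, with the highest Slc6a3, also had the highest Th (94.8 CPM) and Drd2 (26 CPM) of the 26 libraries. Htr2c had r = 0.616 with Slc6a3 (adjusted permutation p = 0.0193, rho = 0.624) and r = 0.605 with Drd2 (adjusted permutation p = 0.0274, rho = 0.613). With Th its r was 0.277 and did not pass (adjusted permutation p = 0.462). With all 31 libraries Slc6a3 had r = 0.377 with Drd2 and 0.281 with Htr2c, and neither pair passed.

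Slc18a2, which dopamine, histamine, serotonin and noradrenaline neurons all use, covaried with Hdc and Th but did not pass with Slc6a3 (r = 0.529, adjusted permutation p = 0.0721). With Hdc, r was 0.678 (permutation p = 0.00082, adjusted 0.0123) and rho 0.612 (adjusted permutation p = 0.0242), r was 0.565 without the 2 farthest libraries, and the within-group values ran from 0.354 in obesogenic males to 0.882 in obesogenic females. With Th, r was 0.587 (permutation p = 0.00562, adjusted 0.0421) and rho 0.585 (adjusted permutation p = 0.0330), but r was 0.396 without the 2 farthest libraries and 0.0162 within obesogenic males, so this pair rested on part of the data. With all 31 libraries the Th and Slc18a2 correlation turned to -0.572 and that of Slc18a2 and Hdc was 0.949; both values include control female 5, where Slc18a2 and Hdc were lowest and Th highest. Th and Hdc themselves had r = 0.0748 over the 26 libraries, and Slc6a3 and Hdc had r = 0.0215; neither passed.

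**Figure D4:**
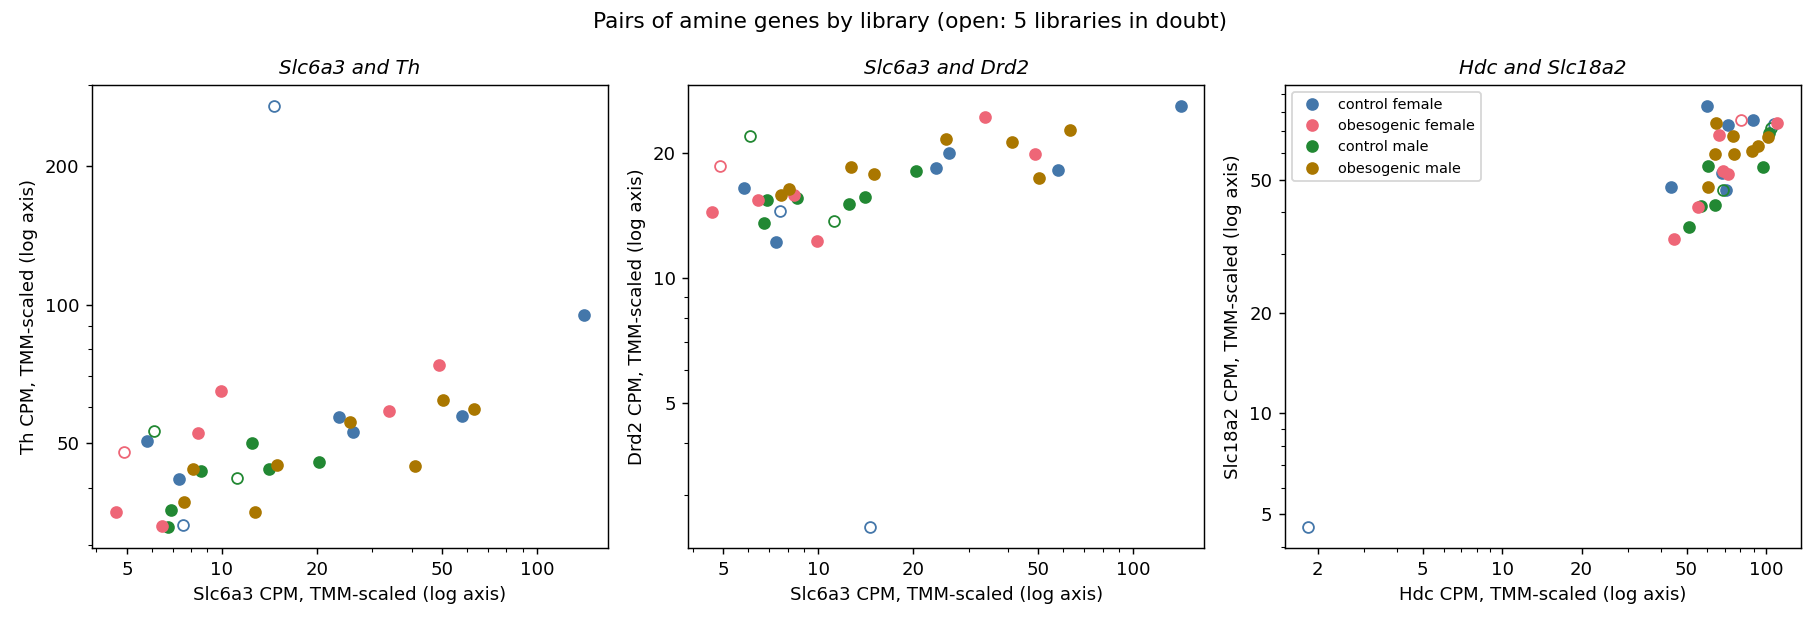
TMM-scaled CPM (log axes) of Slc6a3 with Th, Slc6a3 with Drd2, and Hdc with Slc18a2; each point is a library, coloured by group, and open points are the 5 libraries in doubt. Th and Drd2 rise with Slc6a3 across the filled points of every colour, and the open point far from the rest in each panel is control female 5.

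Drd1, Hrh1, Hrh3 and Htr1b were in none of the 6 pairs called over the 26 libraries. Over all 31, Htr1b passed with Htr2c, and Hrh3 passed with Hdc and Slc18a2. Hdc and Hrh3, the enzyme and the autoreceptor of histamine neurons, had r = 0.553 (adjusted permutation p = 0.0721), and Hrh3 and Htr2c had r = -0.512 (adjusted permutation p = 0.0797); neither passed. With all 31 libraries, control female 5 included, Hdc and Hrh3 had r = 0.863 and passed (adjusted permutation p = 0.00675), and Hrh3 and Htr2c turned to 0.636 (adjusted permutation p = 0.158). Hrh3 has a GC content of 62.2%, the highest of the 10 genes, and Htr2c one of 42.1%, the lowest. Over the 26 libraries Hrh3 correlated with the slope of all genes' levels on GC content (r = 0.734, rho = 0.726, adjusted permutation p = 0.0068 and 0.0050), and Htr1b with that slope (r = -0.544, adjusted permutation p = 0.0387) and with the slope on gene length (r = 0.623, adjusted permutation p = 0.0340), over 20 tests, although neither passed by Spearman's rho (-0.510 and 0.529, adjusted permutation p = 0.0811 for each). Htr2c had r = -0.576 with the GC slope (adjusted permutation p = 0.0525). For Slc6a3 these correlations were -0.0245 and 0.168, and for Hdc 0.0970 and 0.287, with adjusted permutation p of at least 0.528. The part of these slopes in the Hrh3, Htr2c and Htr1b values was not tested.

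For a ranking by Pearson's r, tested genes named only as predicted models or clones were left out. Of the rest, the 3 that followed each of the 10 most closely over the same 26 libraries were listed, as a description. For Slc6a3 they were Ret (r = 0.888), En1 (0.870) and Chrnb3 (0.843), of which En1 and Chrnb3 are on the list of midbrain dopamine markers. Levels of these genes were low: En1 ran from 0 to 3.62 CPM and Chrnb3 from 0.249 to 8.92 CPM, while Ret ran from 26 to 73.1 CPM. Control female 3 held the highest value of all 3. Ret (0.849) was also closest to Drd2, followed by Mab21l1 (0.835) and Syt2 (0.8). Th was followed by Slc6a3 itself, Slc10a4 (0.737), another marker on the midbrain list, and Ddc (0.719).

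Hdc was followed by Wif1 (r = 0.908, the highest among the genes listed), Prph (0.890) and Bsx (0.807). Wif1 and Prph are on the list of tuberomammillary markers. Wif1 ran from 5.37 to 15.8 CPM, Prph from 10.9 to 30.3 CPM and Bsx from 9.31 to 25.8 CPM, and in control female 5 Hdc, Prph and Bsx were all low (1.84, 0.324 and 0.216 CPM) while Wif1, at 9.41 CPM, was within the range. Slc18a2 was followed by Ddc (0.773), Tpd52 (0.737) and Col17a1 (0.729). Of all genes tested, only 1 had an r over 0.8 with Th, 7 with Slc6a3 and 3 with Hdc, whereas 59 did with Hrh3, 50 with Htr2c and 15 with Htr1b. Among the closest to those receptors were Rpusd1 (0.893) for Hrh3, Cdk14 (0.878) for Htr2c and Acer3 (0.854) for Htr1b; Nmur2 (0.725) was closest to Drd1 and Sox3 (0.688) to Hrh1.

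**Figure D5:**
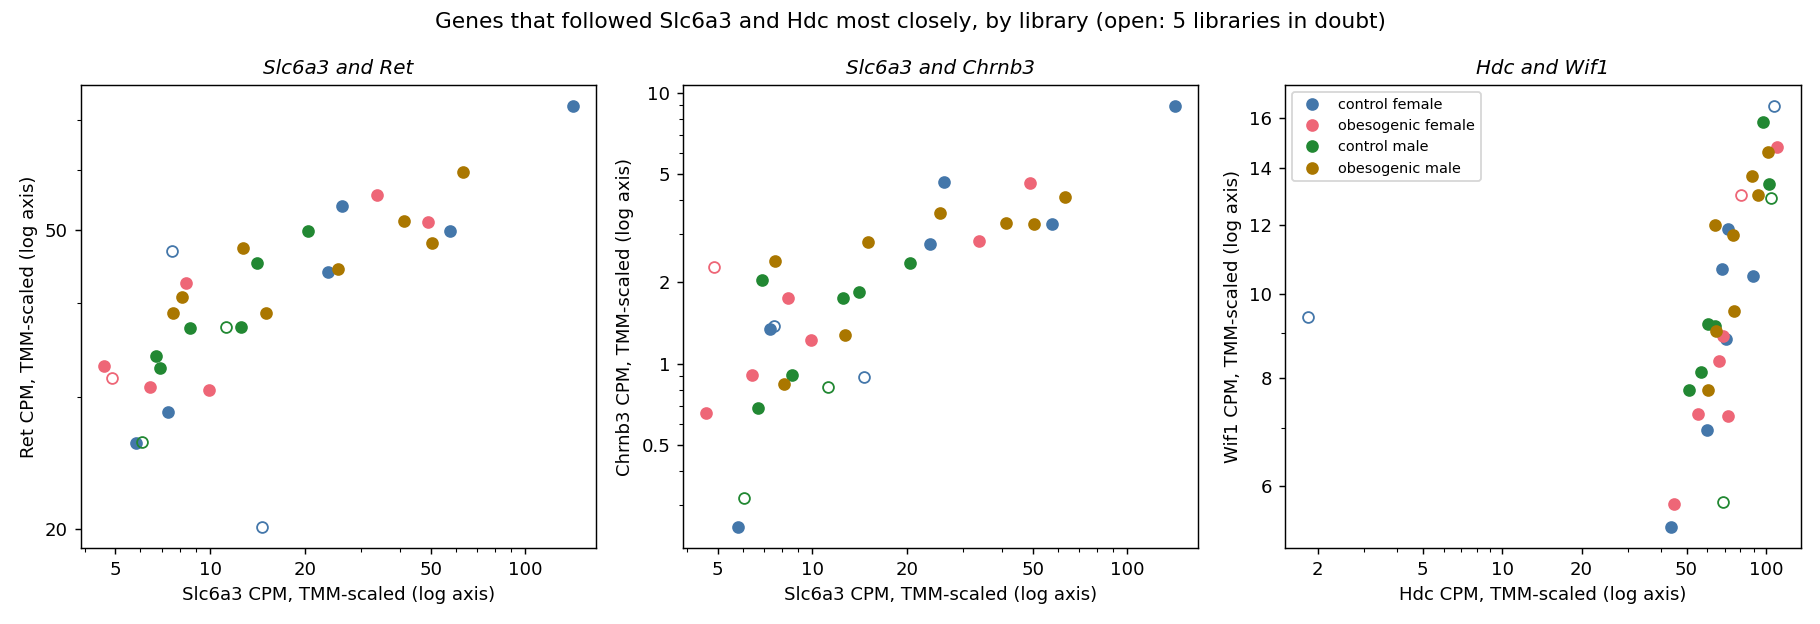
TMM-scaled CPM (log axes) of Slc6a3 with Ret and Chrnb3 and of Hdc with Wif1, by library and group; open points are the 5 libraries in doubt. Ret spans 26 to 73.1 CPM and Wif1 5.37 to 15.8 CPM over the filled points, rising with Slc6a3 and Hdc, while control female 5 lies off the Hdc and Wif1 trend at 1.84 CPM of Hdc.

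The 12 midbrain dopamine markers, leaving out the 10 genes, were summed in each library and set beside them. The sum correlated with Slc6a3 (r = 0.812, rho = 0.765, adjusted permutation p = 0.0011 and 0.0022), Htr2c (r = 0.767, adjusted permutation p = 0.00165) and Drd2 (r = 0.724, adjusted permutation p = 0.0158), over 110 tests of 11 marker lists. Its r with Th was 0.509 (adjusted permutation p = 0.144). The sum ran from 148 to 489 CPM in control females, 161 to 242 in obesogenic females, 188 to 258.1 in control males and 173 to 321 in obesogenic males, and Aldh1a1, at 56.6 to 312 CPM, and Sncg, at 44.7 to 70.4 CPM, made up most of it. Of the defining markers, Pitx3 reached at most 0.821 CPM and was at 0 in 7 of 31 libraries, En1 was at 0 in 6, and Chrna6 ran from 0.107 to 22.8 CPM. Their part in the Slc6a3, Drd2 and Htr2c values was not tested. The 10 pituitary markers summed to 67.4 to 6349 CPM and had r = 0.109 with Drd2, and the tuberomammillary sum had r = 0.470 with Hdc (adjusted permutation p = 0.145). That sum, 218 to 310 CPM, leaves out Hdc and Slc18a2, and Maoa and Maob (52.1 to 92.4 CPM) were its most abundant genes. Wif1 and Prph, which followed Hdc most closely, were small parts of it, at 5.37 to 16.1 and 10.6 to 30.9 CPM. Past the threshold by Pearson's r were also Hrh3 with the olfactory bulb (0.585) and noradrenaline (-0.563) markers, Htr2c with the noradrenaline markers (0.655) and Htr1b with the choroid plexus markers (0.692); of these 4, only Hrh3 with the noradrenaline markers also passed by Spearman's rho (-0.785, adjusted permutation p = 0.0011). Maoa alone, at 62.7 to 102 CPM, made up nearly all of the noradrenaline sum, in which Hand1 had 0 reads in all 31 libraries.

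The wider machinery of the 3 amines was described from 4 lists. None of these held a gene called by edgeR in daughters or sons, with 31 or 26 libraries (background 0.0% in each). Calls in these lists by the other tools are not given here. Of 19 other genes of amine synthesis, transport and breakdown 15 were tested, with 4 estimates higher and 11 lower in daughters of obesogenic-diet dams (median log2 fold change -0.068) and 6 higher and 9 lower in sons (-0.017). With the 26 libraries 14 were tested, with 2 higher and 12 lower in daughters (-0.089), while in sons the direction turned, to 10 higher and 4 lower (0.044). Ddc lay at 45.5 to 93.8 CPM in the 26 libraries, the oxidases Maoa and Maob, which break the amines down, at 62.7 to 102 and 52.1 to 92.4 CPM, and Hnmt, which inactivates histamine, at 19.4 to 35.2 CPM. Tph2, which makes serotonin in neurons, was only 0.104 to 1.35 CPM, and the serotonin transporter Slc6a4 reached at most 0.416 CPM. Tph2 averaged 0.919 ± 0.376 CPM over the 8 control females and 0.305 ± 0.118 CPM over the 7 obesogenic females, a log2 fold change of -1.58 ± 0.52 (edgeR adjusted p = 0.524), with 0 of 7 obesogenic females above the control mean. In sons it was -0.82 ± 0.49, and -0.13 ± 0.47 with the 26 libraries, against -1.50 ± 0.51 in daughters with those libraries (edgeR adjusted p = 0.543). Dbh, which makes noradrenaline, had -1 ± 0.88 in sons and was at 0 in 6 of 31 libraries.

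Of 18 other amine receptors 14 were tested, with 8 estimates higher and 6 lower in daughters (median 0.17) and 10 higher and 4 lower in sons (0.062). With the 26 libraries these were 11 and 3 in daughters (0.10) and 8 and 6 in sons (0.025). Htr7, at 25.6 to 41.5 CPM, and Htr1a, at 14.9 to 21.5 CPM, were among the more abundant; Htr1a had a log2 fold change of 0.25 ± 0.14 in daughters and Htr7 one of 0.16 ± 0.14 in sons. Htr1f had -1.53 ± 0.69 in daughters with all libraries and 0.066 ± 0.54 with 26, control female 5 holding 6.41 CPM against at most 1.15 CPM. Drd3 had 0.83 ± 0.68 in sons at no more than 1.6 CPM. All 12 dopamine effector genes were tested, with 7 higher and 5 lower in each sex and medians of 0.10 and 0.0099. Arpp21 had -0.71 ± 0.29 in daughters with all libraries and -0.019 ± 0.11 with 26, and Pde1b had 0.15 ± 0.11 in sons. Ppp1r1b, the phosphatase inhibitor known as DARPP-32, was 23.5 to 52.5 CPM, with a log2 fold change of -0.26 ± 0.13 in sons (edgeR adjusted p = 0.940). Of 18 transcriptional regulators of amine neurons 15 were tested, with 3 higher and 12 lower in daughters (median -0.26) and 9 higher and 6 lower in sons (0.061); with the 26 libraries these were 5 and 10 in daughters (-0.034) and 7 and 8 in sons (-0.047), the sons' median turning. Meis2 had -2.77 ± 0.91 in daughters with all libraries and 0.56 ± 0.34 with 26, control female 5 holding the 885 CPM already given, and Dlx2 had -0.64 ± 0.32 and 0.025 ± 0.19. Nr4a2, a regulator of dopamine neuron identity also known as Nurr1, had 0.62 ± 0.29 in sons with all libraries and 0.48 ± 0.22 with 26 (edgeR adjusted p = 0.940 and 1.0). Foxa2, at no more than 1.18 CPM, had 1.63 ± 0.89 and 1.91 ± 0.85 (edgeR adjusted p = 0.940 and 1.0).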

How the data were processed

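RNA from hypothalamus was sequenced in 31 libraries; per the labels' protocols, RNA was isolated with an RNAqueous kit and libraries were made by Illumina TruSeq methods. Per the file headers, the deposited values are raw counts of read pairs per gene from featureCounts 1.6.2, on Ensembl GRCm38 release 94, which required both mates to map, a mapping quality of at least 10 and the reverse strand. The submitters' processing notes name FastQC, TopHat2 2.0.13, Subread, edgeR and build mm10. Multi-mapped reads are not named in that command, and the sources used here do not give animals, litters or batches. No column of values was left unused.

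Libraries were grouped by maternal diet and sex from the labels, and replicate numbers only name libraries. edgeR 4.0.16 in R 4.3.3 was fitted to all 31 libraries with filterByExpr (18743 genes kept), TMM scaling, robust quasi-likelihood dispersions and 1 mean per group, and p-values were adjusted by Benjamini and Hochberg's method over all genes tested, with 0.05 as the threshold. RPKM divides CPM by the summed exon length the files give. Covariation used log2 CPM with a prior count of 2, group means removed, and 100000 two-sided permutations within groups, adjusted over 45 pairs. Alternatives were DESeq2 1.42.0, limma 3.58.1 voom with quality weights, other size factors, other filters, leaving out libraries in doubt, and only the 2 groups compared. The slopes on GC content and length and the marker sums beside each gene were added after seeing the data. A library stood apart when its median correlation with the others lay more than 3 median absolute deviations below the median. The fits and the permutation code were tested on simulated data.

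The 10 genes and all lists were chosen with earlier results of these data known. The rule for named genes took all 10 genes, and the 3 tested genes closest to each by Pearson's r, leaving out predicted models and clone names. It also took the 2 tested genes of smallest p in each list and diet contrast, and Ddc, Tph2, Slc6a4, Maoa, Maob, Hnmt and Ppp1r1b as levels. Of marker lists it took the 2 most abundant genes and those at 0 reads. Pitx3, En1, Chrna6, Foxa2's levels and the values of control female 5 were picked out after they were seen. In some contrasts the 10 are given partly as a range, and some genes that this rule selects are not reported here.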

Additional observations from a re-analysis of the deposited data

Results flagged for a closer look

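Within each of the 4 groups, each of the 10 genes was examined for a highest or lowest library far from its nearest neighbour, 40 group and gene combinations in all. The rule was Dixon's ratio at the 95% level, on CPM without a log transform. By that rule chance alone picks out about 5% of such groups if values are normally distributed, which was not tested here. The rule picked out 7, and 6 of them were in control female 5. Th was highest there, at 270.7 CPM after TMM scaling, where the other control females had 33.2 to 94.8 CPM. In the same library Slc18a2 was 4.57 CPM against 46.6 to 83.1 CPM, Hrh1 was 4.33 CPM against 28.6 to 39.3 CPM and Hrh3 was 24.1 CPM against 56.8 to 73.8 CPM. Htr2c was 6.89 CPM against 53.9 to 89.9 CPM and Htr1b was 1.65 CPM against 18.9 to 26.6 CPM. Hdc, at 1.84 CPM in that library, was not picked out. The seventh was Slc6a3 in control female 3, at 141.5 CPM, where the other control females had 5.80 to 57.8 CPM. The same library held the highest Th and Drd2 of the 26 libraries not in doubt.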

How the results depend on the processing

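No alternative called any of the 10 genes in any contrast (lowest adjusted p 0.377). Of 440 values under alternatives, 416 kept direction and 24 changed sign, none of them called. In daughters by diet, voom gave Hdc -0.084, Hrh1 -0.087, Th 0.032 and Meis2 0.71, and leaving out the libraries against their sex label gave Slc18a2 0.055. Leaving out the 3 standing apart gave Drd2 -0.069, Hdc -0.063, Hrh1 -0.046, Dlx2 0.059, Htr1f 0.15 and Meis2 0.69; leaving out all 5 gave Drd2 -0.12, Hrh1 -0.055, Dlx2 0.025, Htr1f 0.066 and Meis2 0.56. In sons Htr1b was -0.056 by voom and -0.0056 without the 3. For the interaction, Hdc was -0.20 by voom, -0.081 without the 3 and -0.067 without the 5, and Htr2c was 0.016 by voom and 0.0055 without the sex-label libraries. For sex after control dams, Drd2 was 0.14, 0.23 and 0.25 and Hrh1 0.025, 0.060 and 0.070 by voom, without the 3 and without the 5, and Drd1 was 0.13 without the 5. For sex after obesogenic-diet dams, Hrh3 was -0.013 by voom. Th and Slc18a2 had r = -0.572 over all 31 libraries.

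Among all genes, edgeR called 0 in each contrast. DESeq2 called 25 by diet in daughters, 1 in sons, 7 for the interaction, 28 for sex after control dams and 12 after obesogenic-diet dams. For sex after control dams, 10 were called without the sex-label libraries and 11 without the 5. After obesogenic-diet dams, voom called 3, the fit to only the 2 groups 12, and leaving out the sex-label libraries, the 3 or the 5 gave 9, 1 and 14. The cause was not tested. With only the 3 left out, 3 pairs of the 10 genes were called in place of 6. No paired analysis was possible because the labels give no replicate numbers that groups share. Depth limits Drd1 most, and the spread between libraries limits Slc6a3.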
